A study of Mus musculus with 6 samples.

Results

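NF-κB is a family of dimeric transcription factors held in the cytoplasm until a signal releases them. This account covers 10 mouse genes, the 5 that encode the subunits (Nfkb1, Nfkb2, Rel, Rela, Relb) and 5 that encode the kinases upstream of them and their scaffold (Map3k14, Chuk, Ikbkb, Ikbkg, Ikbke). They were chosen by exact gene symbol, and each had 1 row among the 29940 rows of the deposited table. RNA sequencing gave the mRNA levels of colon organoids, hollow epithelial bodies that grow in Matrigel from crypts, here those of C57BL/6J mice. After 2 days of culture the organoids spent 24 hours with tumour necrosis factor alpha (TNF, 3 libraries) or alone (Ctrl, 3 libraries, called vehicle-treated in the title of the series). All organoids came from this strain, and the sources used here name neither the TNF dose nor a second agent, although the protocol words the TNF arm as a combination. Nothing in the labels says that the libraries of a group came from separate animals or cultures, so the p-values measure the spread between these libraries, which may be technical.

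In the canonical arm of the pathway, receptors such as the TNF receptor activate a kinase complex of IKKβ (Ikbkb), IKKα (Chuk) and the regulatory scaffold NEMO (Ikbkg). That complex marks the inhibitor IκB for destruction and frees dimers of p50, cut from the Nfkb1 product p105, with RelA or c-Rel. In the non-canonical arm, receptors such as the lymphotoxin beta receptor stabilise the kinase NIK (Map3k14), which acts through IKKα to have the Nfkb2 product p100 cut to p52, the partner of RelB. Chuk thus serves both arms, while Ikbke encodes IKKε, an IKK-related kinase best known from antiviral signalling, and was counted with neither arm. These proteins are regulated largely by phosphorylation, cleavage and destruction, none of which a level of mRNA shows. In the intestinal epithelium, NF-κB drives the response to TNF and to microbial products.

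Short stretches of DNA at the start sites of Nfkb2 and Rel are shown because these members rose with TNF and had a κB motif, the consensus site bound by NF-κB, near a start site. Windows from 250 bases before to 50 bases after each transcription start were taken from RefSeq on GRCm38.p6. Of the 10 members, 7 matched, with 12 windows in all, while Nfkb1, Relb and Ikbkb had no window and were not searched. The κB decamer consensus was searched on both strands, and overlapping matches were merged. It was present in 4 of the 12 windows, the 3 of Nfkb2 and the single window of Rel. Of all 32851 windows, 8.46% held it, and of the 11303 windows of genes tested here 10.4%. These shares count windows, so a gene with several windows counts more than once. No match was found in these windows of Rela, Map3k14, Chuk, Ikbke or Ikbkg, which says only that these letters are not there. Among these genes, Rela, Map3k14 and Ikbke also rose with TNF, so a rise did not always come with a match. The windows of the second and the third start of Nfkb2 overlap and share one match, and all windows of this gene lie largely within exons annotated by GENCODE. Each line below gives the bases 5′ to 3′ on the strand of the gene, with the matched bases in capitals.
Nfkb2 first start, chr19:46304689-46304717, plus strand: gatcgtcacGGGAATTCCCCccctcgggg
Nfkb2 first start, chr19:46304716-46304745, plus strand: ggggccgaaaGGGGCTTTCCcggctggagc
Nfkb2 second start, chr19:46305449-46305478, plus strand: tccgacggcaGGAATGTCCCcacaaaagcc
Nfkb2 second start, chr19:46305695-46305724, plus strand: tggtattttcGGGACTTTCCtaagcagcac
Rel, chr11:23771042-23771070, minus strand: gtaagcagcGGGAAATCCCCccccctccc
These matches are descriptions of the sequence, and binding was not measured.

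With TNF, the organoids held more mRNA of all 5 NF-κB subunits, of NIK and of IKKε, while no call was made for the 3 genes of the classical IKK complex. The calls for Nfkb1 and Map3k14 were lost without Ctrl 1 and TNF 3, libraries that stood apart from the others in Lyz2, a leukocyte marker (limma adjusted p = 0.0603 for Nfkb1 and 0.0924 for Map3k14). Their log2 changes were then 0.26 and 0.49, beside 0.26 and 0.52 with all 6 libraries. With fewer libraries the SEs were 0.07 and 0.15, beside 0.04 and 0.10. Why the calls were lost was not tested. Nfkb2 and Relb, the subunit genes of the non-canonical arm, rose about 3-fold (3.16-fold and 3.01-fold as ratios of mean FPKM). The canonical subunit genes Rel, Rela and Nfkb1 rose 1.51-fold, 1.47-fold and 1.21-fold. By limma on log2(FPKM + 1) with an adjusted p under 0.05, 7 of the 10 members were higher in TNF and 0 were lower, where 12.9% of the 12350 tested genes were higher and 11.1% lower. At an unadjusted limma p under 0.05 0 members were lower, where 17.5% of tested genes were, and 8 were higher, Ikbkb being the eighth, where 18.6% were. All 10 members passed the filter, a mean over the 6 libraries that reached 1 FPKM, Map3k14 only through its TNF values. FPKM is the number of fragments scaled by exon length and library size, and it is the scale of every level below, given as mean ± SD with n = 3 in each group. In such bulk samples, more cells of a type and more RNA per cell cannot be told apart.

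**Figure D1:**
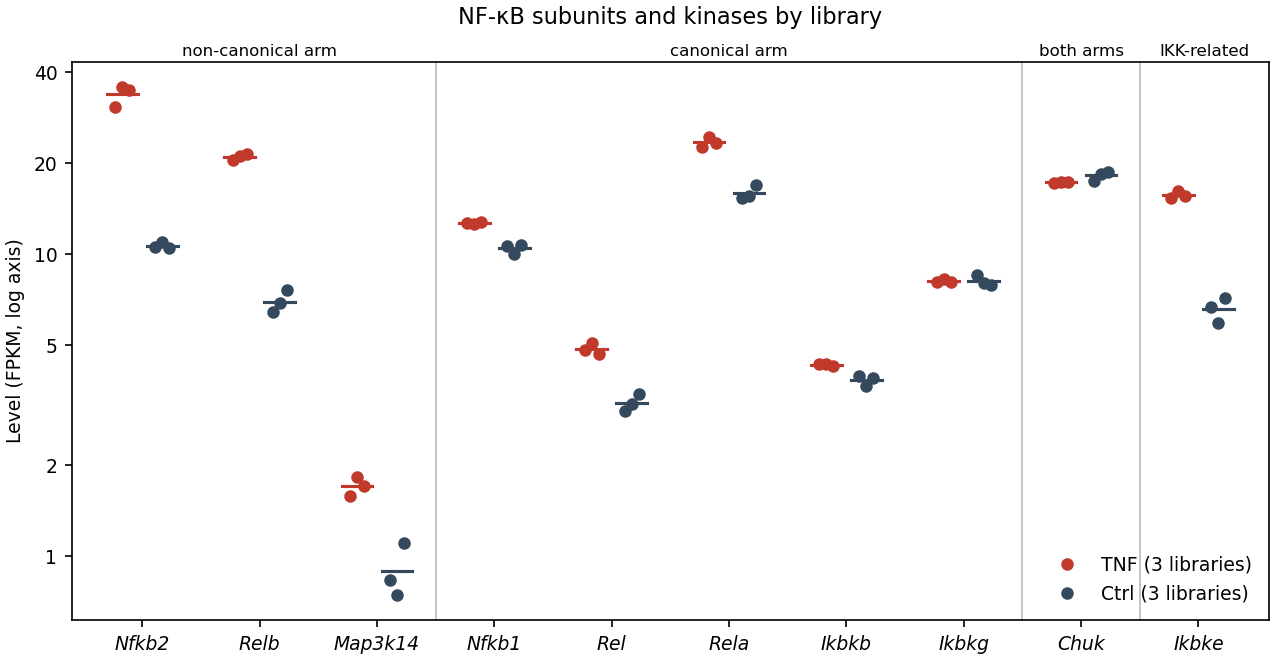
Levels of the 10 members in FPKM on a log axis, with a point for each library and a bar at the group mean, TNF in red and Ctrl in dark blue. Nfkb2 lay at 30.6 to 35.7 FPKM in TNF and 10.5 to 11.0 FPKM in Ctrl, while the Ikbkg points of the groups overlap.

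Nfkb2, which encodes the p100 precursor of p52 (ENSMUSG00000025225, GRCm38 chromosome 19, 46304320 to 46312385), had 30.6, 35.7 and 34.9 FPKM in the TNF libraries, against 10.6, 11.0 and 10.5 FPKM in the Ctrl libraries. Every TNF library was far above every Ctrl library, and TNF 1 was the lowest of its group. The means were 33.7 ± 2.72 FPKM in TNF and 10.7 ± 0.254 FPKM in Ctrl, a log2 change of 1.57 with an SE of 0.06 (limma adjusted p = 4.73e-06), which held rank 51 among the 12350 tested genes ordered from the largest rise. Of its 4584 exonic bases, 830 overlap exons of other genes on the opposite strand. The neighbour among them with values, Psd, was at 2.497 ± 0.140 FPKM in TNF and 0.849 ± 0.0982 FPKM in Ctrl. The sources used here do not say whether counting used strand, so reads of the shared bases cannot be assigned to either gene.

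Relb, the subunit that pairs with p52 (ENSMUSG00000002983, chromosome 7, 19606217 to 19629438), had 20.4, 21.1 and 21.4 FPKM in the TNF libraries, against 6.41, 6.89 and 7.62 FPKM in the Ctrl libraries. The groups were well apart, with means of 21.0 ± 0.487 FPKM in TNF and 6.97 ± 0.607 FPKM in Ctrl. Its log2 change was 1.46 with an SE of 0.06 (limma adjusted p = 5.57e-06), at rank 64.

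Map3k14, which encodes NIK (ENSMUSG00000020941, chromosome 11, 103219762 to 103267472), was the lowest of the 10 members in both groups. It had 1.58, 1.83 and 1.71 FPKM in the TNF libraries, against 0.836, 0.747 and 1.11 FPKM in the Ctrl libraries. The groups did not overlap, and Ctrl 3 was the highest Ctrl library. The ratio of means was 1.903, and the log2 change was 0.52 with an SE of 0.10 (limma adjusted p = 0.00851), a scale that understates changes at such low levels. Since it passed the filter only through TNF, its count as a rise is partly fixed by the filter. Without a filter its limma adjusted p was 0.0325. The log2 changes of the 3 non-canonical genes had a median of 1.46, beside -0.00 over all tested genes.

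Rela encodes the main activating subunit of the canonical arm (ENSMUSG00000024927, chromosome 19, 5637483 to 5648130). It had 22.7, 24.4 and 23.3 FPKM in the TNF libraries, against 15.4, 15.5 and 16.9 FPKM in the Ctrl libraries. The groups were apart by more than their spread, and the log2 change was 0.53 with an SE of 0.05 (limma adjusted p = 0.000323). Rel, which encodes c-Rel (ENSMUSG00000020275, chromosome 11, 23736847 to 23770970), had 4.82, 5.07 and 4.66 FPKM in the TNF libraries, against 3.03, 3.197 and 3.43 FPKM in the Ctrl libraries. It too rose in all 3 TNF libraries, with a log2 change of 0.47 with an SE of 0.06 (limma adjusted p = 0.00127). Nfkb1, which encodes the p105 precursor of p50 (ENSMUSG00000028163, chromosome 3, 135584655 to 135691547), had 12.7, 12.6 and 12.8 FPKM in the TNF libraries, against 10.6, 10.0 and 10.8 FPKM in the Ctrl libraries. This was the smallest rise among the members that passed, a log2 change of 0.26 with an SE of 0.04 (limma adjusted p = 0.00483).

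The classical kinase complex was close to level. Ikbkb, which encodes IKKβ (ENSMUSG00000031537, chromosome 8, 22659212 to 22706589), had 4.32, 4.35 and 4.25 FPKM in the TNF libraries, against 3.96, 3.66 and 3.88 FPKM in the Ctrl libraries. The groups did not overlap, but the log2 change of 0.13 (95% interval 0.01 to 0.26) did not pass (limma adjusted p = 0.110). Chuk, which encodes IKKα (ENSMUSG00000025199, chromosome 19, 44073335 to 44107480), had 17.2, 17.4 and 17.3 FPKM in the TNF libraries, against 17.5, 18.4 and 18.8 FPKM in the Ctrl libraries. All TNF values lay below all Ctrl values by a small margin, with a log2 change of -0.07 (95% interval -0.17 to 0.03, limma adjusted p = 0.276). Ikbkg, which encodes NEMO (ENSMUSG00000004221, chromosome X, 74393290 to 74453854), had 8.09, 8.29 and 8.09 FPKM in the TNF libraries, against 8.502, 7.997 and 7.91 FPKM in the Ctrl libraries. These values overlap, and the 95% interval of the log2 change ran from -0.10 to 0.11 (limma adjusted p = 0.966). Exons of G6pdx, at 58.3 ± 0.782 FPKM in TNF and 58.2 ± 4.51 FPKM in Ctrl, cover 418 of the 8110 exonic bases of Ikbkg on the opposite strand. As for Nfkb2, reads of the shared bases cannot be assigned to either gene. G6pdx was far above Ikbkg, so its reads may add to the Ikbkg level in both groups and dilute a change, which was not tested. The canonical arm thus held 3 members that rose, all subunits, and 2 that did not pass, with a median log2 change of 0.26.

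Ikbke, which encodes IKKε (ENSMUSG00000042349, chromosome 1, 131254343 to 131279606), rose more than any other kinase gene among the members. It had 15.4, 16.2 and 15.6 FPKM in the TNF libraries, against 6.70, 5.93 and 7.15 FPKM in the Ctrl libraries. The groups were far apart, with a ratio of means of 2.39 and a log2 change of 1.14 with an SE of 0.06 (limma adjusted p = 2.66e-05), at rank 127. Exons of antisense transcripts cover 224 of its 9018 exonic bases, and the more abundant of these, Gm28913, was at 6.01 ± 0.451 FPKM in TNF and 2.91 ± 0.226 FPKM in Ctrl. Without strand information the share of reads from each side cannot be separated there.

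**Figure D2:**
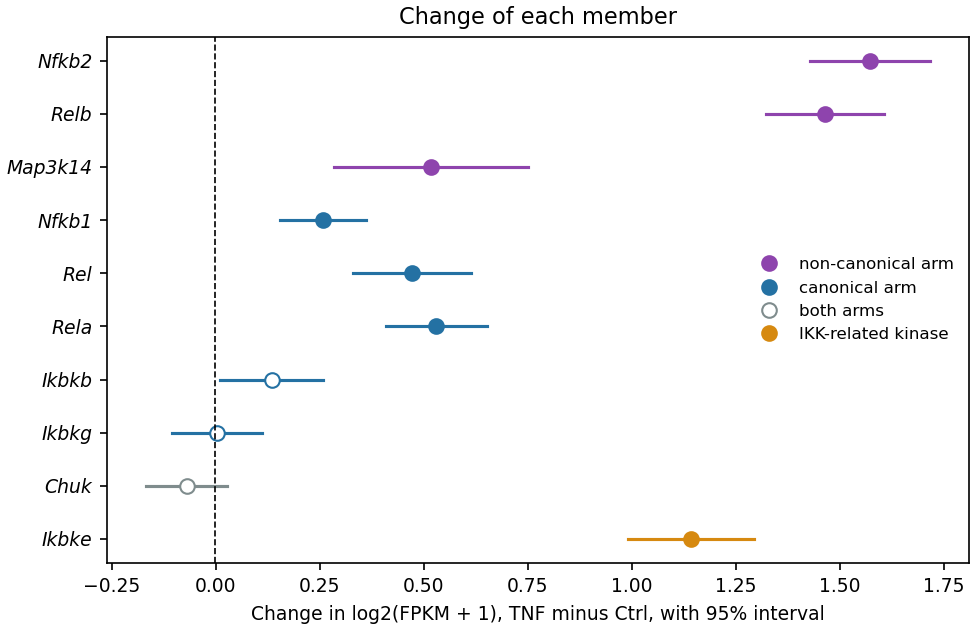
Change of each member in log2(FPKM + 1), TNF minus Ctrl, with its 95% interval from limma, coloured by arm. Filled points passed the adjusted threshold and open points did not, and the dashed line is the median of all tested genes. Nfkb2 (1.57), Relb (1.46) and Ikbke (1.14) stand to the right of the other 7 members, whose changes lie between -0.07 and 0.53.

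Values of TNF and Ctrl did not overlap for 9 of the 10 members, with 8 above and 1 (Chuk) below. Of all tested genes, 21.0% lay above and 20.4% below in this way, 41.4% in all, so a gap between the groups alone was common in these libraries. Within groups, the coefficient of variation of the members ran from 0.485% (Chuk) to 8.05% (Nfkb2) in TNF and from 2.38% (Nfkb2) to 21.0% (Map3k14) in Ctrl. It was larger in Ctrl for 9 of the 10 members. The values stand for an estimated 144 to 5153 reads per member and library. The 144 reads were those of Map3k14 in Ctrl 2, for which counting alone gives an error of 8.33%.

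The order of the levels differed between the groups. In TNF, from high to low, it was Nfkb2, Rela, Relb, Chuk, Ikbke, Nfkb1, Ikbkg, Rel, Ikbkb and Map3k14, and no neighbours in this order had overlapping ranges. In Ctrl it was Chuk, Rela, Nfkb2, Nfkb1, Ikbkg, Relb, Ikbke, Ikbkb, Rel and Map3k14. There the ranges of Nfkb2 and Nfkb1 overlapped, as did those of Relb and Ikbke. Levels of different genes depend on the exonic length they are divided by, which for Ikbkb (19078 bases) and Nfkb1 (12061 bases) included long listed transcripts and for Rela was 3072 bases.

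The makeup of subunit mRNA differed accordingly. The summed level of the 5 subunits was 95.7 ± 3.997 FPKM in TNF and 47.3 ± 1.71 FPKM in Ctrl, a ratio of 2.03. Nfkb2 and Relb together made up 56.0%, 57.4% and 58.0% of it in the TNF libraries, against 36.9%, 38.3% and 36.7% in the Ctrl libraries. Rela, the largest single share in Ctrl, made up 24.5 ± 0.445% in TNF and 33.7 ± 0.608% in Ctrl. Nfkb1 made up 13.3 ± 0.574% in TNF and 22.1 ± 0.823% in Ctrl, although its own level was higher in TNF. These shares follow from the levels above and were not tested on their own. The size of each share depends on the exonic length its level is divided by, 3072 bases for Rela and 12061 bases for Nfkb1. In Ctrl the estimated reads were 1404 to 1554 for Rela and 3554 to 3910 for Nfkb1. The order of the shares within a library is therefore one of FPKM and not of reads.

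**Figure D3:**
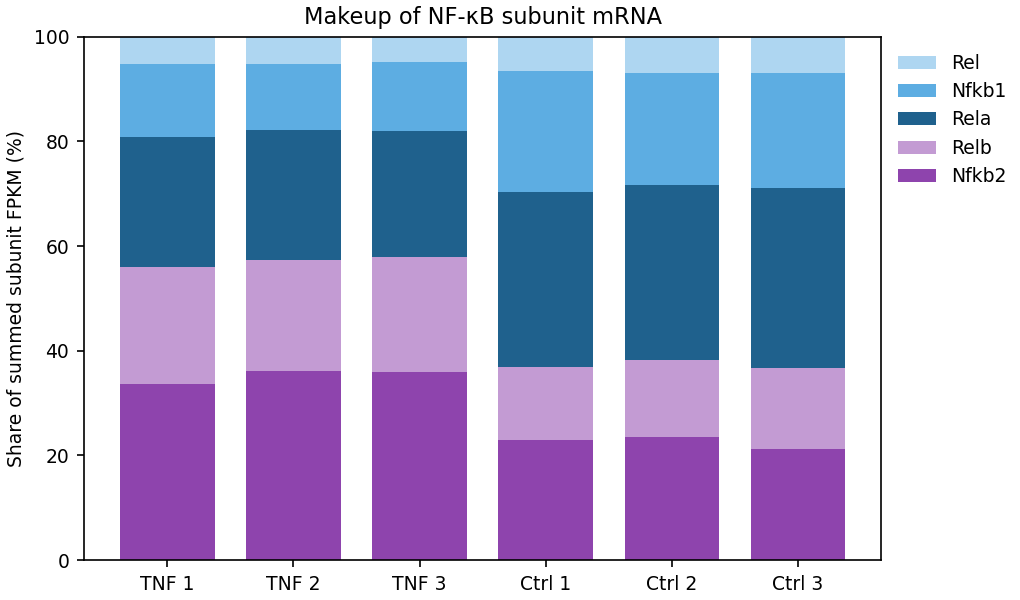
Share of each subunit in the summed FPKM of the 5 subunits, in percent, for each library, with the non-canonical genes in purple at the bottom and the canonical genes in blue above. The purple part is 56.0% to 58.0% in the TNF libraries and 36.7% to 38.3% in the Ctrl libraries.

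To set the arms against each other within a library, 6 ratios between paired members were compared by an exact two-sided permutation test over libraries. With 3 against 3 libraries this test cannot give a p below 0.1, so no ratio could pass 0.05. The ratio of the precursor genes, Nfkb2 over Nfkb1, was 2.42, 2.83 and 2.73 in the TNF libraries, against 0.997, 1.09 and 0.974 in the Ctrl libraries. Per exonic base, the precursors were thus about equal in Ctrl, and the non-canonical precursor was the higher in TNF. Which of them is higher depends on the length used, 12061 bases for Nfkb1 and 4584 bases for Nfkb2. The estimated reads in Ctrl were 3554 to 3910 for Nfkb1 and 1433 to 1481 for Nfkb2. In TNF they were 4288 to 4966 and 3941 to 5153. The change of the ratio between the groups does not depend on these lengths. The ratio Relb over Rela was 0.894 ± 0.0270 in TNF and 0.437 ± 0.0172 in Ctrl, and Relb over Rel was 4.33 ± 0.222 in TNF and 2.16 ± 0.0530 in Ctrl. Each of these ratios was higher in all 3 TNF libraries than in any Ctrl library, by 2.60-fold for Nfkb2 over Nfkb1, 2.05-fold for Relb over Rela and 2.00-fold for Relb over Rel (exact permutation p = 0.1 for each, the smallest possible, and 0.1 adjusted over the 6 ratios).

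The kinase ratios differed between the groups as well, although neither Chuk nor Ikbkb was called on its own. Map3k14 over Ikbkb was 0.396 ± 0.0273 in TNF and 0.233 ± 0.0450 in Ctrl, and Ikbke over Ikbkb was 3.65 ± 0.0837 in TNF and 1.72 ± 0.113 in Ctrl. Both were higher in every TNF library. Chuk over Ikbkb was 3.98, 3.997 and 4.07 in the TNF libraries, against 4.43, 5.02 and 4.83 in the Ctrl libraries, so here all TNF values lay below the Ctrl values. The exact permutation p was 0.1 for each of these 3 ratios too.

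**Figure D4:**
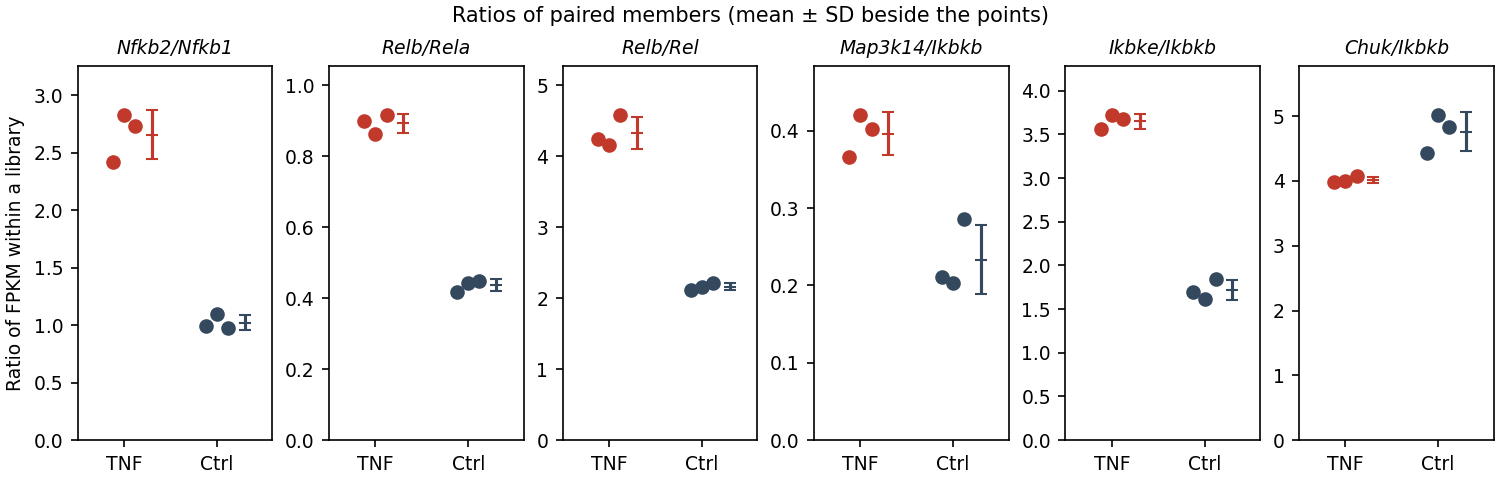
Ratios of FPKM of paired members within each library, TNF in red on the left and Ctrl in dark blue on the right of each panel, each axis starting at 0, with mean ± SD beside the points. Chuk over Ikbkb is lower in TNF (3.98 to 4.07 against 4.43 to 5.02 in Ctrl), and the other 5 ratios are higher in TNF.

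The other genes of the pathway were taken from lists covering ligands, receptors, signalling proteins, inhibitors and targets. Of 70 listed genes, 69 had values and 51 passed the filter. Of these 51, 28 were higher, 4 were lower and 19 did not pass, with a median log2 change of 0.25. Over all tested genes, 12.9% were higher and 11.1% lower. The lists were chosen with earlier results of these data known, so the counts of each list are descriptions and not independent of the data. Of the 28, 4 (Ltb, Icam1, Cxcl10 and Nfkbie) had a Ctrl mean under 1 FPKM and passed only through their TNF values, so the filter partly fixed their direction and the counts of their lists. Of 8 ligand genes, 2 reached the filter, Tnf and, through its TNF values alone, Ltb. Tnf rose and had 27.5, 24.6 and 24.5 FPKM in the TNF libraries, against 4.96, 4.47 and 5.15 FPKM in the Ctrl libraries. Ltb, which encodes lymphotoxin beta, a ligand of the non-canonical arm, had 2.52, 2.28 and 2.87 FPKM in the TNF libraries, against 0.314, 0.134 and 0.128 FPKM in the Ctrl libraries. It had a log2 change of 1.58 (limma adjusted p = 6.18e-05). The leukocyte markers Ptprc and Cd3e had means of 0.378 and 0.487 FPKM in TNF, against 0.179 and 0.0529 FPKM in Ctrl. Lyz2, another leukocyte marker, was at 11.4 ± 7.50 FPKM in TNF and 12.1 ± 6.45 FPKM in Ctrl. Whether leukocyte RNA had a part in the Ltb level was not tested.

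Among 5 tested receptor genes, 3 rose, 1 fell and 1, Tnfrsf1a, did not pass. Ltbr, the receptor for lymphotoxin that feeds the non-canonical arm, fell to 30.1, 30.1 and 29.9 FPKM in the TNF libraries, against 35.5, 36.7 and 39.1 FPKM in the Ctrl libraries. That is a log2 change of -0.30 (limma adjusted p = 0.00271), opposite in direction to Ltb. Tnfrsf1b, Tnfrsf11a (RANK) and Tnfrsf12a, the receptor for TWEAK, rose 1.99-fold, 1.76-fold and 1.504-fold as ratios of mean FPKM. The call for Tnfrsf12a was lost without both Ctrl 1 and TNF 3 (limma adjusted p = 0.111).

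Proteins that relay the receptor signal to the IKK complex gave 1 rise, 2 falls and 7 genes that did not pass among 10 tested. Traf2, an adaptor of both arms, rose to 6.25 ± 0.470 FPKM in TNF, against 4.12 ± 0.113 FPKM in Ctrl. The adaptor gene Tradd and Tab3, a partner of the kinase TAK1, were lower by log2 changes of -0.19 and -0.22. These last calls were each lost when any of 5 of the 6 libraries was left out (smallest adjusted p then 0.0624 for Tradd and 0.0543 for Tab3). Map3k7, which encodes TAK1, was at 14.8 ± 0.599 FPKM in TNF and 13.3 ± 0.366 FPKM in Ctrl and did not pass (limma adjusted p = 0.0698).

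Genes whose products hold NIK at a low level by marking it for destruction, or restrain that arm, gave 3 rises among 4 tested. Birc3, which encodes cIAP2, rose 4.22-fold, and Traf3, the adaptor that brings NIK to the cIAP ligases, had 10.7, 10.7 and 11.3 FPKM in the TNF libraries, against 6.87, 6.26 and 6.70 FPKM in the Ctrl libraries. Otud7b, a deubiquitinase that preserves TRAF3, rose 1.20-fold, and this call was lost without TNF 1 (adjusted p = 0.0509). Birc2, which encodes cIAP1, was at 7.41 ± 0.318 FPKM in TNF and 6.59 ± 0.493 FPKM in Ctrl and did not pass (limma adjusted p = 0.131).

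Among the partners and relatives of the IKKs, 3 of 5 tested genes rose and 1 fell. Tbk1, which encodes the closest relative of IKKε, had 19.2, 22.1 and 19.8 FPKM in the TNF libraries, against 14.4, 13.4 and 14.4 FPKM in the Ctrl libraries. Tank, an adaptor of TBK1 and IKKε, rose 1.42-fold, and Cdc37, a chaperone cofactor of kinases, 1.154-fold, a call lost without both Ctrl 1 and TNF 3 (limma adjusted p = 0.102). Azi2, another adaptor of these kinases, was lower by a log2 change of -0.16, a call lost when any of 5 of the 6 libraries was left out (smallest adjusted p then 0.0767). The list for the ubiquitin ligase of IκB and for p100 processing held 1 rise among 6 tested genes, Fbxw11 (1.22-fold). The other 5 did not pass.

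Of 12 tested genes on the list of inhibitors of NF-κB, 10 rose, with a median log2 change of 0.62. This list also holds the IκB family genes Bcl3, Nfkbid and Nfkbiz, whose products are not plain inhibitors. Its count is therefore no measure of inhibition. By p-value the rises were led by Tnfaip3, Nfkbia, Tnip1 and Bcl3, with ratios of mean FPKM of 5.55, 5.56, 2.48 and 2.32. Bcl3 encodes an IκB family protein that binds p50 and p52 dimers in the nucleus. The calls for 2 other genes of this list, Nfkbid and Nfkbiz, were lost when any of 4 and any of 3 single libraries were left out (largest limma adjusted p = 0.0794 and 0.0641), and that for Pdlim2 without both Ctrl 1 and TNF 3 (0.0643). Of 10 targets of the canonical arm, 5 passed the filter and 4 rose, with Icam1 at 16.7-fold, Ccl20 at 5.17-fold, Cxcl10 at 4.52-fold and Cxcl1 at 2.40-fold. The remaining tested target, Sod2, was at 8.21 ± 0.339 FPKM in TNF and 8.78 ± 0.571 FPKM in Ctrl and was not called (limma adjusted p = 0.340). The call for Cxcl1 was lost when any of 5 of the 6 libraries was left out (smallest adjusted p then 0.0753). Of 6 targets of the non-canonical arm, known mainly from lymphoid stroma and immune cells, 5 had values and 2 passed the filter. Madcam1 was the target without values. Icosl, a costimulatory ligand gene, rose to 2.25, 2.53 and 2.69 FPKM in the TNF libraries, against 1.39, 1.45 and 1.39 FPKM in the Ctrl libraries. Cxcl13 was at 1.23 ± 0.402 FPKM in TNF and 1.01 ± 0.0152 FPKM in Ctrl and did not pass.

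**Figure D5:**
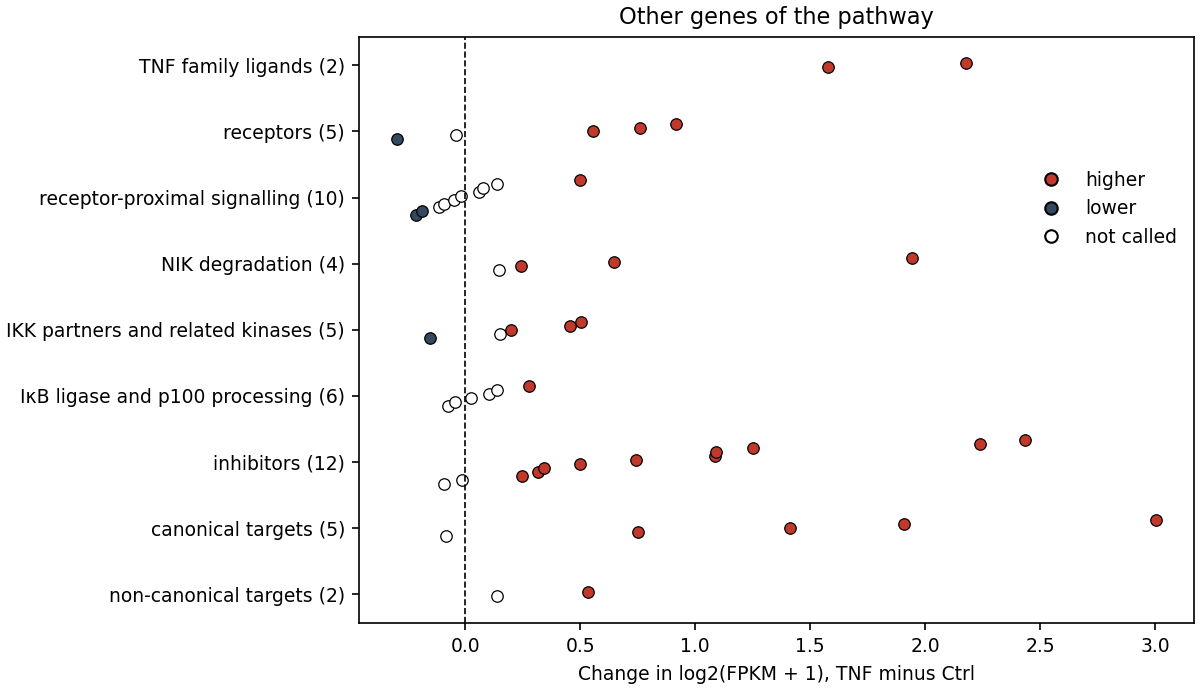
Change in log2(FPKM + 1), TNF minus Ctrl, of the 51 other pathway genes that passed the filter, by list, with the number tested in brackets and the all-gene median as a dashed line. Red points were higher, dark blue lower and white not called. The list of inhibitors (10 of 12 higher) spreads far to the right, while most receptor-proximal genes sit near 0.

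The genes whose profiles over the 6 libraries were nearest to those of 3 members were found by the root mean square difference in log2(FPKM + 1) after the Ctrl mean of each gene was subtracted, among 12340 genes. They were Adh1 (0.04), Slc6a20a (0.06) and Noxo1 (0.09) for Nfkb2. For Relb they were Tnfrsf19 (0.07), Cxcl16 (0.08) and Tmem238l (0.08), and for Rela they were Nfic (0.02), Mmp28 (0.03) and Sh3pxd2a (0.03). With 2 groups of libraries such a profile is mainly the size of the difference between them.

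Libraries held an estimated 28055352 to 32192900 reads in genes, from the steps between low deposited values. Markers of the epithelium summed to 2989 to 3179 FPKM in TNF and 2664 to 2881 FPKM in Ctrl, with 3 of 7 higher. Markers of colon epithelium summed to 1301 to 1334 FPKM in TNF and 1813 to 2093 FPKM in Ctrl, with 4 of 5 tested lower and Muc2 not called. Markers of other cells were low but not equal. Glial and neural markers moved with the members, at 24.7 to 27.3 FPKM summed in TNF and 5.89 to 7.85 FPKM in Ctrl, with all 4 tested of 6 higher, among them Gfap, S100b and Tubb3, and their part in the results above was not tested. Leukocyte markers summed to 6.68 to 21.2 FPKM in TNF and 6.37 to 19.1 FPKM in Ctrl, mostly as Lyz2. Of these 9 markers 2 passed the filter, Lyz2, which was not called, and Laptm5, which passed through its TNF values and was higher. Below the filter, all TNF values of Ptprc and Cd3e lay above the Ctrl values. The defining leukocyte gene Ptprc was at 0.378 ± 0.00453 FPKM in TNF and 0.179 ± 0.0287 FPKM in Ctrl, and Cd3e, of T cells, at 0.487 ± 0.1002 FPKM in TNF and 0.0529 ± 0.0244 FPKM in Ctrl. The part of these low markers in the results was not tested. Stromal and muscle markers summed to 6.60 to 8.37 FPKM in TNF and 8.47 to 19.1 FPKM in Ctrl, with 1 of 3 tested lower (Col1a1), and endothelial markers to at most 0.838 FPKM in any library. No listed marker was at 0 in all libraries. TNF 3 and Ctrl 1 stood apart in Lyz2, at 2.72 and 4.65 FPKM, beside 15.6 to 16.01 FPKM in the other 4 libraries. Without both, 5 of the 10 members were called higher. The log2 changes of Nfkb1 and Map3k14 were then 0.26 and 0.49, and those of Nfkb2, Relb and Ikbke 1.54, 1.40 and 1.16.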

How the data were processed

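The authors deposited 1 table with a value per gene and library, named as normalized counts. The values are not whole, and times exonic length (GENCODE M21, GRCm38) they sum to 9.59e+08 to 9.64e+08 per library, so the deposited values were read as FPKM. Per the submitters' processing notes, cutadapt 1.9 and FastQC were used and the build was GRCm38. The aligner, counter, annotation release and strandedness are not given in the sources used here. Of the low values of genes with a single exon of at least 300 bases, 42.8% to 46.3% lay within 0.05 of a whole multiple of a step taken as 1 read. If unrelated to whole reads, 10% would. The step was set from the same values, which partly fixes this share, and all numbers of reads given here are estimates that rest on it. Values were not whole reads for nearly all genes, so no count test was run. Counting errors cover sampling only.

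TNF was compared with Ctrl on log2(FPKM + 1) for the 12350 genes whose mean reached 1 FPKM, by limma 3.58.1 (R 4.3.3) with a variance trend, two-sided, with Benjamini-Hochberg adjustment over all tested genes and a threshold of 0.05. The script was tested on simulated data. Ratios used scipy 1.17.1. All 10 members are named, with up to 4 genes of each list by p-value. The members, lists and alternatives were chosen with earlier results of these data known. RefSeq promoter windows were matched by symbol.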

Additional observations from a re-analysis of the deposited data

How the results depend on the processing

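Of the 10 members, 7 were called higher and 0 lower in TNF when any library was left out (7 to 7 higher), with the replicate number as a block (7), and under each other alternative with a value, except that 5 were called without both Ctrl 1 and TNF 3 and 5 with the filter at 5 FPKM, which removed Rel, Map3k14 and Ikbkb from the test. The same-numbered libraries did not deviate together (correlations of -0.004, -0.10 and 0.005), beside -0.09 to 0.09 for libraries with different numbers. The numbers were thus not used as pairs in the main test. Such correlations cannot show whether the libraries were prepared in pairs, and the labels do not say. The block left 27 higher and 1 lower (Ltbr) of the other pathway genes, so that Tradd, Tab3 and Azi2 were not called. Of those genes, 28 were higher (25 to 27 leaving out a library, 21 without both Ctrl 1 and TNF 3). The 4 lower ones were less stable: 1 was called without a filter, 1 with the block, 1 without both libraries, 2 without the variance trend and 1 to 3 leaving out a library, and Ltbr was lower in all 15 alternatives. Over all tested genes, 821 were higher and 596 lower without both libraries, and 913 lower without Ctrl 1, beside 1595 and 1374 with all 6 libraries. The smaller sample sets test with fewer libraries; for the other settings the cause was not tested. The 6 ratios kept their direction under every alternative, and their smallest possible exact p was 0.25 by sign-flip of same-numbered libraries. The log2 change of Map3k14 ranged from 0.19 (pseudocount 5) to 0.87 (pseudocount 0.1), and that of Rel from 0.26 to 0.58. The log2 difference of Map3k14 over Ikbkb was 0.38 with a pseudocount of 1 in both genes, beside 0.78 with none. Scaling moved the all-gene median by less than 0.1, to -0.01 at most (quantile). Ikbkg, which was not called, changed sign in 4 of 15 alternatives.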
